A study of Mus musculus with 9 samples.

Results

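Malat1, Neat1 and Gas5 are 3 of the 15434 genes in a table of RNA sequencing values from macrophages of the mouse, and were taken from it by their symbols. The study sorted macrophages from testis, epididymis and brain, with 3 libraries per organ and 9 in all, and the library titles call the brain cells microglia. Each group came from C57BL/6J mice without treatment, and the cells were not cultured. In every organ the sort kept live cells with CD45, CD11b and F4/80 on the surface and without Ly6C and CD11c. The comparisons address how macrophages differ between organs, under a series title on the embryonic origin of the macrophages of testis and epididymis.

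The 3 testis libraries carry mouse number 1, the 3 epididymis libraries number 2 and the 3 brain libraries number 3, so organ and mouse number cannot be told apart. Nothing in the labels says that the libraries of an organ came from separate animals, and the p-values below measure the spread between libraries, which may be technical. The protocol mentions pooling of testis and epididymis suspensions in words that do not say which cells shared a tube, and the organ of each library is taken from its label. The reads assigned to genes numbered 2727092 to 4458688 per library, and values are normalised reads, the reads of a gene divided by a factor per library. On principal component 3 of the tested genes (14.2% of the variance) testis replicate 1 and epididymis replicate 3 stood highest, at 99.1 and 97.2. Epididymis replicate 2 stood lowest, at -94.6, and the other 6 libraries lay between -59.2 and 39.3. Of the sort genes, Ptprc (CD45) averaged 2805 ± 478 in the testis libraries, 2944 ± 512 in epididymis and 1622 ± 247 in brain, and Itgam (CD11b) averaged 361 ± 84.9, 1094 ± 176 and 2197 ± 221 in the same order (SD, n = 3 each). Adgre1 (F4/80) stood between 100 and 240 normalised reads in testis, between 331 and 684 in epididymis and between 42.4 and 88.3 in brain. Itgax (CD11c), which the sort excluded, had 0 to 21.4 normalised reads in the testis libraries, 209 to 294 in the epididymis libraries and 0 in the brain libraries. Ly6c2, of the excluded Ly6C, had 101, 63.0 and 80.4 in testis, 0, 0.938 and 32.3 in epididymis and 8.20, 46.8 and 6.22 in brain and was not called by limma between any 2 organs.

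All 3 genes make RNAs that are not translated into a known functional protein. Malat1 RNA collects in nuclear speckles, domains rich in splicing factors, and its 3′ end is cut by RNase P, the enzyme that also trims tRNA precursors, leaving an A-rich end that folds into a triple helix in place of a poly(A) tail. Neat1 RNA is the scaffold of paraspeckles, and its gene makes a short polyadenylated transcript and a long one that ends like Malat1. Gas5 is a host gene of small nucleolar RNAs in its introns, and its spliced RNA starts with a 5′ terminal oligopyrimidine (5′TOP) tract, is degraded by nonsense-mediated decay during translation, and can bind the glucocorticoid receptor.

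Malat1 and Neat1 are neighbours on the minus strand of chromosome 19 of GRCm38, the assembly that mm10 denotes, in the GENCODE M21 annotation. Malat1 (ENSMUSG00000092341.3, a lincRNA) spans chr19:5795690-5802672, and Neat1 (ENSMUSG00000092274.3, a lincRNA) spans chr19:5824708-5845478, 22036 bases upstream of it. Gas5 (ENSMUSG00000053332.13, a processed transcript) lies on the plus strand of chromosome 1 at chr1:161034422-161038539. The annotated exons cover 6983 bases for Malat1, 20771 for Neat1 and 3760 for Gas5.

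The 3′ ends of Malat1 and of the long Neat1 transcript are shown because both lack a poly(A) tail and share their letters. They read 5′ to 3′ on the minus strand of GRCm38, and capitals mark the runs of at least 10 bases common to both.
Malat1, chr19:5795982-5796091: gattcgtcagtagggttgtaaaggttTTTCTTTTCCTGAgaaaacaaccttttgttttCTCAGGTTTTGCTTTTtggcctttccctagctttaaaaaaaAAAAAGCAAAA
Neat1 long transcript, last 100 bases, chr19:5824708-5824807: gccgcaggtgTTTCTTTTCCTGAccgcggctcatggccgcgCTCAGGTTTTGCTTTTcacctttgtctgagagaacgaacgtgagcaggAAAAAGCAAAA
The shared runs are 13, 16 and 11 bases long and lie in the same order. The annotated Malat1 transcript of 6983 bases goes on for 292 bases past the A-rich run, and the long Neat1 transcript ends at it. The next 58 bases of Malat1, which hold the tRNA-like part known as mascRNA, are shown because they follow the RNase P cut.
Malat1 after the A-rich end, chr19:5795924-5795981: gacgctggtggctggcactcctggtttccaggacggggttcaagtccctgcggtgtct
AAAAGCAAAA is the last 10 bases of the long Neat1 transcript and TTTTGCTTTT their reverse complement. TTTTGCTTTT followed within 60 bases by AAAAGCAAAA, searched on the sense strand, was found in 4 of 141767 GENCODE M21 transcripts, from the genes Malat1, Neat1 and Retreg3. Alone, TTTTGCTTTT was in 1.08% and AAAAGCAAAA in 1.12% of transcripts.

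The short Neat1 transcript has a different end, shown for AATAAA, the usual polyadenylation signal. Its last 60 bases hold AATAAA in capitals (minus strand, GRCm38), a motif found on the sense strand in the last 60 bases of 27.1% of transcripts.
Neat1 short transcript, chr19:5842307-5842366: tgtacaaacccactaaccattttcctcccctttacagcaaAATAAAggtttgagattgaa
The table has 1 row for Neat1, so the values below do not separate the short transcript of 3004 bases from the long one of 20771.

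The start of Gas5 is shown for its pyrimidine tract. RefSeq's promoter table (GRCm38.p6) holds Malat1 and Gas5, 2 of the 3 genes, with 2 starts for Gas5. The 50 bases before and the 50 bases from the downstream start are given on the plus strand, with CCTTTC in capitals, which begins 1 base before the annotated start.
Gas5, chr1:161035116-161035215: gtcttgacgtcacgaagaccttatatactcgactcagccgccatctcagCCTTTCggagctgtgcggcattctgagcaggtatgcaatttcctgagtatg
CCTTTC lay within 10 bases before to 20 bases after the start in 384 of 32851 promoters (1.17%), and on the other strand in 1.14%. Among 18 promoters of snoRNA host genes 2 held it, those of Snhg12 and Snhg16, and among 13 promoters of 5′TOP translation genes 0 held it. Only the letters CCTTTC were searched, so these counts do not tell whether those starts hold a different pyrimidine tract.

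Malat1 was the gene with the most reads in 8 of the 9 libraries and the second in epididymis replicate 3. It had 91339, 93697 and 88099 normalised reads in the testis libraries, 111927, 111876 and 103574 in the epididymis libraries and 116716, 125360 and 100844 in the brain libraries. All 3 testis libraries lay below the other 6, a pattern seen in 4.55% of the 11766 genes tested, while epididymis and brain overlapped. Taken by pairs, 8.8% of tested genes had all testis libraries below all epididymis libraries, and 14.9% had them below all brain libraries. The shares of reads were 2.56 ± 0.0770% in testis, 3.45 ± 0.187% in epididymis and 3.78 ± 0.483% in brain (SD, n = 3 each).

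The differences in Malat1 did not pass the test. In limma, fitted to log2(value + 1) of all tested genes with Benjamini-Hochberg adjustment and called at an adjusted p below 0.05, the log2 fold of testis over epididymis was -0.26 (SE 0.17, 95% interval -0.63 to 0.11, adjusted p = 0.47). The log2 fold of testis over brain was -0.32 (SE 0.17, 95% interval -0.69 to 0.04, limma adjusted p = 0.28), and that of epididymis over brain was -0.06 (SE 0.17, 95% interval -0.43 to 0.31, limma adjusted p = 0.91). The call for testis over brain depended on the setting. It was made by DESeq2 on recovered reads (log2 fold -0.33, adjusted p = 0.037), by limma with every gene of the table tested (log2 fold -0.32, adjusted p = 0.016) and by limma on values scaled to library totals (log2 fold -0.55, adjusted p = 0.044). The sign for testis over epididymis turned under quantile normalization (log2 fold 0.23), which gives the highest gene of every library 1 common value. Malat1 was that gene in all libraries but epididymis replicate 3, so its folds under this setting follow from its rank and do not measure its level. The log2 fold of testis over brain was 0 there.

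**Figure D1:**
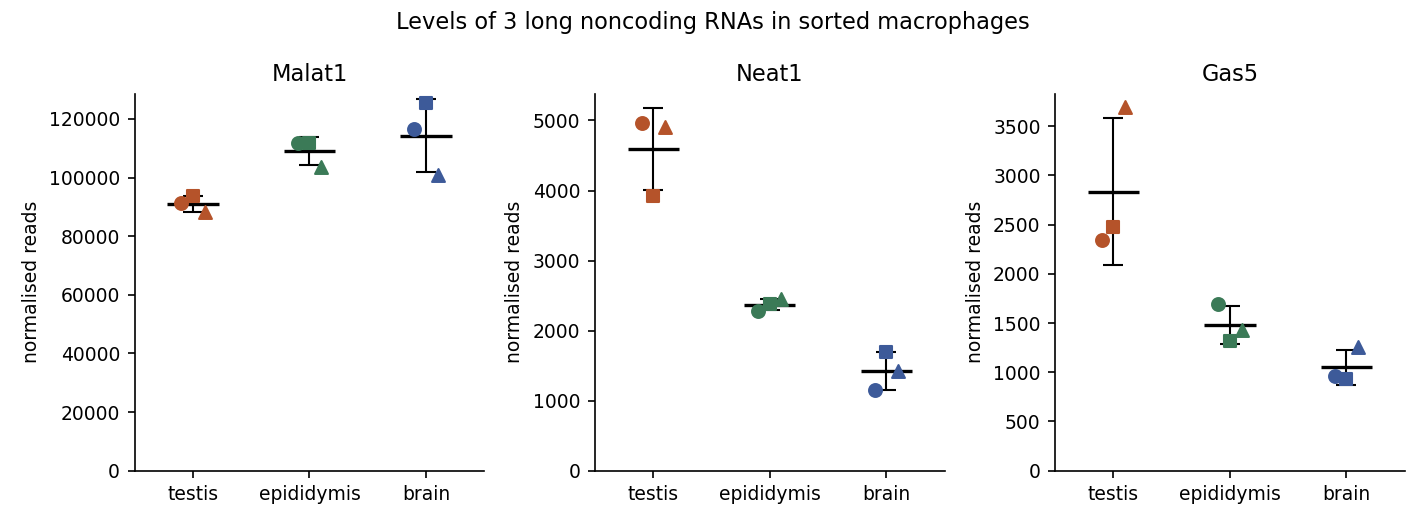
Normalised reads of Malat1, Neat1 and Gas5 (vertical axes, linear, from 0) in the 3 testis, 3 epididymis and 3 brain libraries, where circles, squares and triangles are replicates 1, 2 and 3, long bars the mean and error bars the SD. Neat1 runs down without overlap with means of 4596 in testis, 2369 in epididymis and 1426 in brain, Gas5 with means of 2836, 1479 and 1052, and Malat1 is lowest in the testis libraries.

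Neat1 was highest in testis macrophages, intermediate in epididymis and lowest in brain. It had 4960, 3918 and 4910 normalised reads in the testis libraries, 2285, 2375 and 2446 in the epididymis libraries and 1158, 1699 and 1421 in the brain libraries. No library of one organ reached the range of another, and that order without overlap (testis above epididymis above brain) was seen in 1.73% of tested genes. In pairs, 11.0% of tested genes had testis above epididymis without overlap, 15.9% testis above brain and 10.5% epididymis above brain. By rank within a library, Neat1 stood between 72 and 103 in testis, between 152 and 180 in epididymis and between 256 and 403 in brain, counted from the highest gene.

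Neat1 was called in each of the 3 comparisons. Testis exceeded epididymis 1.93-fold (log2 fold 0.95 ± 0.19 SE, adjusted p = 0.010 in limma) and brain 3.24-fold (log2 fold 1.70 ± 0.19 SE, adjusted p = 2.3e-05 in limma). Epididymis exceeded brain 1.68-fold (log2 fold 0.75 ± 0.19 SE, adjusted p = 0.035 in limma). Over the 3 organs together the moderated F test gave an adjusted p of 8.1e-05 in limma, where 11.4% of tested genes were called. Without testis replicate 1 and epididymis replicate 3, the 2 libraries highest on component 3, the log2 fold was 0.91 for testis over epididymis (limma adjusted p = 0.10), 0.73 for epididymis over brain (limma adjusted p = 0.11), and the call of testis over brain remained. Without limma's variance trend the adjusted p was 0.25 for testis over epididymis and 0.37 for epididymis over brain, and under quantile normalization that of testis over epididymis was 0.079. The call of epididymis over brain was lost when any 1 of epididymis replicates 1, 2 and 3 or brain replicates 1 and 3 was left out (log2 fold 0.61 to 0.88 and limma adjusted p 0.036 to 0.17 over all 9 single omissions).

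Gas5 was also highest in testis. It had 2342, 2475 and 3692 normalised reads in the testis libraries, 1690, 1319 and 1427 in the epididymis libraries and 965, 935 and 1258 in the brain libraries. The organs did not overlap and had the order of Neat1 (1.73% of tested genes), although the highest brain library lay near the lowest epididymis library, and testis replicate 3 stood above the other testis libraries. Testis exceeded epididymis 1.89-fold (log2 fold 0.92 ± 0.22 SE, adjusted p = 0.028 in limma) and brain 2.66-fold (log2 fold 1.41 ± 0.22 SE, adjusted p = 0.00050 in limma).

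Epididymis and brain did not differ by the test (log2 fold of epididymis over brain 0.50 ± 0.22 SE, 95% interval 0.02 to 0.97, limma adjusted p = 0.28), and the F test over the organs gave a limma adjusted p of 0.0015. The call of testis over epididymis was lost without testis replicate 2, testis replicate 3, epididymis replicate 2 or epididymis replicate 3, with log2 folds of 0.71 to 1.04 over the 9 single omissions. It was lost too without testis replicate 1 and epididymis replicate 3 together (log2 fold 1.02, limma adjusted p = 0.10), and in limma without the variance trend the adjusted p was 0.29 for testis over epididymis and 0.058 for testis over brain.

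**Figure D2:**
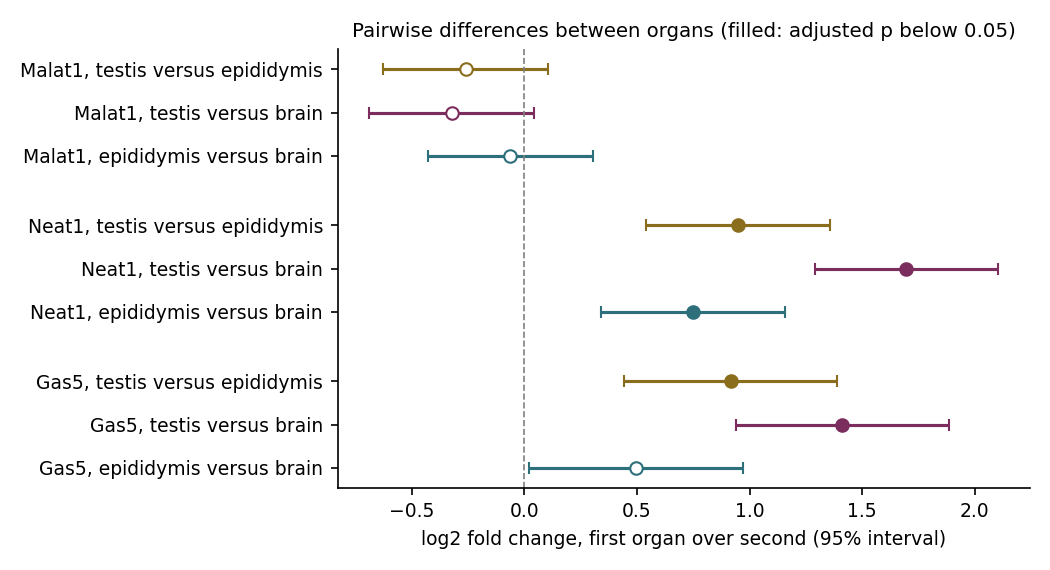
Log2 fold of the first organ over the second for Malat1, Neat1 and Gas5 in the limma fit (horizontal axis), with 95% intervals as bars and filled points for an adjusted p below 0.05. Neat1 is filled in all 3 comparisons, Gas5 for testis over epididymis (0.92) and testis over brain (1.41), and the Malat1 intervals cross 0.

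Set against all genes, 2 of the 3 RNAs were called between testis and epididymis, where 4.39% of the 11766 tested genes were called, and both were among the 2.49% called higher in testis, with 1.9% called lower. The same 2 were called between testis and brain, where the share was 11.7%, with 6.82% called higher and 4.83% lower in testis. Between epididymis and brain 1 of 3 was called, against 4.79% of tested genes (2.99% higher and 1.8% lower in epididymis). The median log2 fold of all tested genes was 0.10 for testis over epididymis, -0.07 for testis over brain and -0.13 for epididymis over brain, so the folds of Neat1 and Gas5 are large beside that shift and those of Malat1 less so. Between 3 libraries and 3, an exact 2-sided permutation test of a single gene cannot go below p = 0.1, and each pair of organs without overlap reached that value. The exact permutation p for Malat1 between epididymis and brain was 0.5.

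The spread between replicates was larger than counting error for each RNA. The coefficient of variation of Malat1 was 3.09% in testis, 4.41% in epididymis and 10.9% in brain, where counting alone gives about 0.3%. Neat1 varied by 12.8%, 3.40% and 19% in the same order of organs, against 1.40%, 2.03% and 2.62% from counting. For Gas5 the variation was 26.2% in testis, 12.9% in epididymis and 16.9% in brain, with 1.81%, 2.58% and 3.06% from counting. The counting values cover counting error only.

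Values per kilobase of exonic bases allow for the length of a gene. Malat1 was far above the others on that scale. It had 13038 ± 402 normalised reads per kb in testis, 15627 ± 689 in epididymis and 16369 ± 1781 in brain (SD, n = 3 each). Gas5 had 754 ± 198 per kb in testis, 393 ± 50.8 in epididymis and 280 ± 47.4 in brain. Neat1 had 221 ± 28.3 per kb in testis, 114 ± 3.88 in epididymis and 68.6 ± 13 in brain. On this scale Gas5 stood above Neat1 in each organ, although Neat1 had more reads. That order rests on the lengths used. Divided by the 3004 bases of the short transcript alone, Neat1 would have 1530 ± 196 per kb in testis, 789 ± 26.8 in epididymis and 475 ± 90.1 in brain. Those values lie above the Gas5 values given here in each organ. The 3760 exonic bases of Gas5 in turn include the snoRNAs annotated inside it, which lie in introns of its spliced RNA. A Gas5 RNA without them is shorter and would have more reads per kb, and that length was not used. The order of Gas5 and Neat1 per kb was therefore not settled.

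Ratios within a library do not depend on its scaling factor. Neat1 had 5.43, 4.18 and 5.57 reads per 100 Malat1 reads in the testis libraries, 2.04, 2.12 and 2.36 in the epididymis libraries and 0.992, 1.36 and 1.41 in the brain libraries. The organs did not overlap, and the F statistic over organs had an exact permutation p of 0.00357, the smallest that assigning 9 libraries to 3 organs of 3 can give (1-sided for large F, adjusted p = 0.0107 over the 3 ratios). Gas5 had 2.56, 2.64 and 4.19 reads per 100 Malat1 reads in testis, 1.51, 1.18 and 1.38 in epididymis and 0.826, 0.746 and 1.25 in brain, with an exact permutation p of 0.00714 (adjusted p = 0.0107). Here 1 brain library lay within the range of epididymis.

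The ratio of Gas5 to Neat1 overlapped between all organs. It averaged 61.9 ± 14.0 Gas5 reads per 100 Neat1 reads in testis macrophages, 62.6 ± 9.92 in epididymis and 75.6 ± 18.0 in brain (SD, n = 3 each). The exact permutation test over organs gave p = 0.496, which does not show that the ratio is equal.

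**Figure D3:**
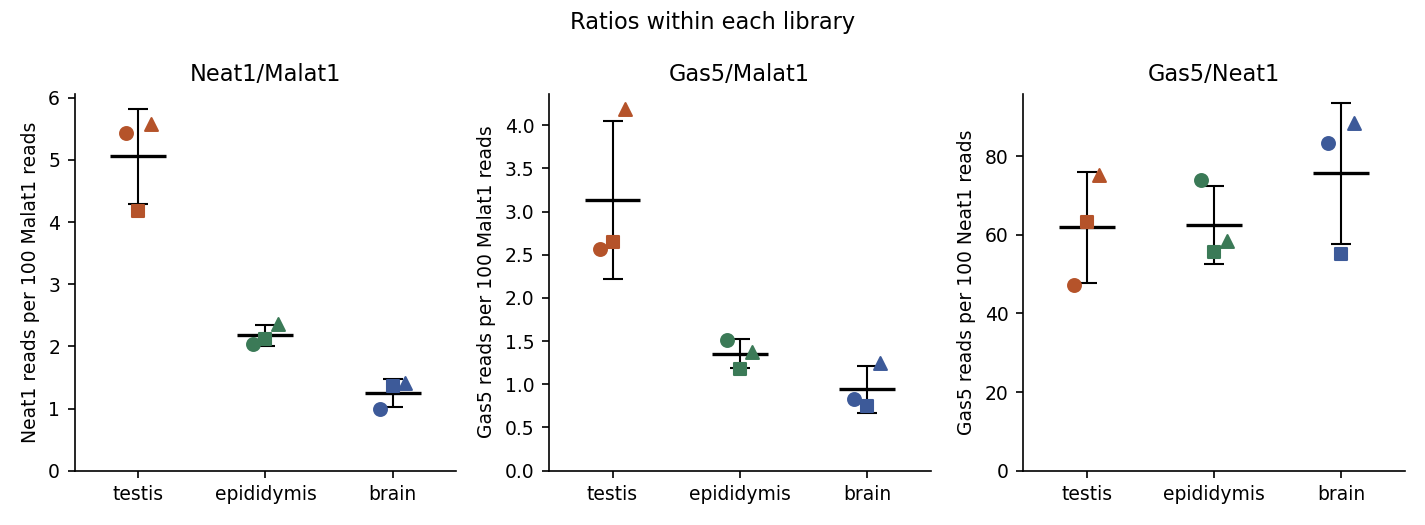
Reads of one RNA per 100 reads of another within each library (vertical axes, linear, from 0), in testis, epididymis and brain, with circles, squares and triangles for replicates 1, 2 and 3, long bars for means and error bars for SD. Neat1 per 100 Malat1 reads averages 5.06 in testis, 2.18 in epididymis and 1.25 in brain without overlap, while Gas5 per 100 Neat1 reads overlaps between the organs.

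Levels of other transcripts also differed between the organs. The 78 ribosomal protein genes took 9.71% to 10.9% of reads in testis, 4.74% to 5.73% in epididymis and 2.13% to 2.92% in brain. The 19 measured genes of a list induced by tissue dissociation summed to 518 to 548 reads per 10000 in testis, 212 to 231 in epididymis and 287 to 437 in brain. By limma 14 of those 19 genes were higher and 0 lower in testis than in epididymis (7 higher without testis replicate 1 and epididymis replicate 3), and 10 were higher and 0 lower in testis than in brain. The shares of all tested genes called were 4.39% and 11.7%, and the list's median log2 folds were 1.39 beside 0.10 and 0.99 beside -0.07 for all tested genes. Between epididymis and brain the list was mixed. By limma 1 gene, Ier3, was higher and 4 were lower in epididymis, against 4.79% of tested genes called. Of the 19 log2 folds 5 were positive and 14 negative (median -0.55 beside -0.13). By DESeq2 1 was higher and 7 were lower there. The 4 lower genes were Jun, Jund, Egr1 and Klf2, all transcription factors, and Egr1 had 1989, 1698 and 1252 normalised reads in epididymis against 6212, 9462 and 10027 in brain (log2 fold -2.37 ± 0.25 SE, adjusted p = 3.3e-05 in limma). Hspa1a, a heat shock chaperone of that list with a near-identical copy in Hspa1b, had 58334, 65051 and 58786 normalised reads in testis, against 16136, 17375 and 18056 in epididymis and 9865, 14136 and 21361 in brain.

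Transcripts that mark other cell types were present, and 3 of the 4 lists given next stood highest in testis. The 6 measured Leydig cell markers summed to 3.82 to 10.4 reads per 10000 in testis, 0.0910 to 0.643 in epididymis, where Insl3, Cyp17a1, Hsd3b1 and Hsd17b3 were at 0, and 0.249 to 0.336 in brain, where Cyp17a1 and Hsd3b1 were at 0. The 7 germ cell markers summed to 2.45 to 6.09 in testis, 1.49 to 2.35 in epididymis and 0.0142 to 0.112 in brain, where Prm1, Tnp2, Odf1 and Smcp were at 0. Ccr2, a chemokine receptor of monocytes, had 1548, 1327 and 1154 normalised reads in testis, 14.5, 68.5 and 52.8 in epididymis and 94.7, 99.2 and 77.3 in brain. Its log2 fold was 5.11 for testis over epididymis (SE 0.52, adjusted p = 5.3e-05 in limma) and 3.88 for testis over brain (SE 0.52, adjusted p = 0.00012 in limma), calls kept in all 9 single omissions.

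T and NK cell markers (6 measured) reached 1.35 to 2.47 reads per 10000 in testis, 0.207 to 0.543 in epididymis, where Lck was at 0, and 0.222 to 0.506 in brain, where Cd3e, Nkg7 and Lck were at 0. The 7 epididymal epithelium markers had 0.0480 to 0.117 in testis, 1.41 to 1.79 in epididymis and 0 in brain. The 8 macrophage markers summed to 31.5 to 37.4 in testis, 63.9 to 72.9 in epididymis and 102 to 105 in brain. Csf1r was the largest part of that sum, with means of 8045, 14065 and 21646 normalised reads in the same order. Csf1r, Mertk and Itgam had their highest means in brain, and Ptprc, Adgre1, Aif1 and Cd68 their lowest. The 9 microglia markers summed to 1.99 to 3.20, 14.1 to 19.4 and 57.2 to 66.0 in the same organs. The brain libraries thus carried the microglia markers, those of their label, most strongly. The part of other cells, of dissociation or of a shift in macrophage makeup in the levels of Neat1 and Gas5 was not tested, and in such sorted bulk samples fewer cells of a type and less RNA per cell cannot be told apart.

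The genes of the proteins that Neat1 gathers in paraspeckles were set beside it. None of 21 tested paraspeckle protein genes was called between testis and epididymis by limma, edgeR or DESeq2, with 5 at an unadjusted limma p below 0.05 and a median log2 fold of 0.07 beside 0.10 for all tested genes, of which 4.39% were called. Of the same 21, 1 was higher and 1 lower in testis than in brain (median 0.03 beside -0.07), where 11.7% of tested genes were called, and 0 were called between epididymis and brain by the 3 tools, with 2 at an unadjusted limma p below 0.05. Dazap1, an RNA-binding protein, had 597, 762 and 569 normalised reads in testis against 311, 351 and 382 in brain (log2 fold 0.88 ± 0.27 SE, adjusted p = 0.045 in limma). Taf15, an RNA-binding protein, had 263, 318 and 350 in testis against 650, 662 and 558 in brain (log2 fold -1.01 ± 0.28 SE, adjusted p = 0.026 in limma). Sfpq, an essential paraspeckle protein, averaged 1483 ± 12 in testis, 1453 ± 130 in epididymis and 1443 ± 424 in brain, and Nono, its partner, averaged 272 ± 104, 287 ± 104 and 226 ± 65.2, both named for their role after their values were seen. Without testis replicate 1 and epididymis replicate 3, neither Dazap1 (limma adjusted p = 0.057) nor Taf15 (limma adjusted p = 0.061) was called. The call of Dazap1 held in 2 and that of Taf15 in 5 of the 9 single omissions, and Dazap1 was not called by edgeR, nor by limma with library totals, quantile normalization, no filter or no variance trend.

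Genes of nuclear speckles, where Malat1 resides, were called at shares near those of all tested genes, 4.39% between testis and epididymis and 11.7% between testis and brain. Between testis and epididymis 1 of 23 was higher in testis, Srsf7, a splicing factor, with 903, 690 and 610 normalised reads in testis against 383, 340 and 291 in epididymis (log2 fold 1.11 ± 0.26 SE, adjusted p = 0.026 in limma). Relative to brain, 3 of 23 fell in testis and 0 rose, with a median log2 fold of -0.19 beside -0.07 for all tested genes. They were Son and Srrm2, which form the core of speckles, and Srrm1, a splicing coactivator. Son had 2817, 3404 and 4267 normalised reads in testis against 5349, 5375 and 5592 in brain (log2 fold -0.66 ± 0.20 SE, adjusted p = 0.044 in limma). Srrm2 had 2319, 3241 and 3295 in testis against 4768, 4771 and 3992 in brain (log2 fold -0.62 ± 0.18 SE, adjusted p = 0.039 in limma). For both Son and Srrm2 testis lay below brain without overlap, as in 14.9% of tested genes. The call of Son held in 2, that of Srrm2 in 3 and those of Srrm1 and Srsf7 in 5 of the 9 single omissions, and without testis replicate 1 and epididymis replicate 3 a single gene of the list was called lower in testis than in brain and 0 higher in testis than in epididymis. Between epididymis and brain 0 of 23 were called by limma, edgeR or DESeq2, with 4 at an unadjusted limma p below 0.05.

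Genes of 3′ end processing were not called in any comparison. This held for 12 tested genes in limma, edgeR and DESeq2, with 0 at an unadjusted limma p below 0.05. Their reads were few. They summed to 1.95 to 2.88 reads per 10000 in testis, 1.52 to 3.42 in epididymis and 2.58 to 3.98 in brain. The lack of calls therefore does not show equal levels. The list includes Elac2, the nuclease that trims tRNA 3′ ends, at 0, 150 and 102 normalised reads in testis, 18.2, 86.3 and 6.47 in epididymis and 41.0, 27.9 and 20.4 in brain. The organs overlapped for Elac2, and the SE of its limma log2 folds was 1.73.

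Gas5 was set beside other snoRNA host genes. Of 20 listed, 13 were in the table and 11 were tested. Between testis and epididymis 0 were called by limma and edgeR and 1 by DESeq2, with 1 at an unadjusted limma p below 0.05. Their median log2 fold was 0.49 beside 0.10 for all tested genes, of which limma called 4.39%. In testis relative to brain 2 were higher, Snhg8 and Snhg18, and 0 lower (median 0.81 beside -0.07). Limma called 11.7% of all tested genes there. Snhg18 was also higher in epididymis than in brain, the single call of 11, where 4.79% of all tested genes were called. Snhg8 had 444, 519 and 1905 normalised reads in testis, 435, 251 and 140 in epididymis and 237, 119 and 344 in brain (log2 fold of testis over brain 1.83 ± 0.55 SE, adjusted p = 0.042 in limma). Its high value in testis replicate 3 is in the library where Gas5 also stood highest, and without that replicate the log2 fold was 1.17 (limma adjusted p = 0.21). Snhg18 had 150, 15.3 and 31.6 normalised reads in testis, 104, 33.8 and 36.7 in epididymis and 0 in the 3 brain libraries, and its call over brain held in 4 of the 9 single omissions for testis and 3 for epididymis. Snhg1, a host of several snoRNAs named after its values were seen, averaged 591 ± 116 in testis, 406 ± 46.9 in epididymis and 397 ± 49.2 in brain and was not called.

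The genes that share the 5′TOP start with Gas5, without the ribosomal proteins themselves, are known for translation. In testis relative to epididymis 7 of 16 rose and 0 fell, where 4.39% of all tested genes were called. Their median log2 fold was 1.09 beside 0.10 for all tested genes. In testis relative to brain 12 of 16 rose and 0 fell, against 11.7% of all tested genes called (median 1.57 beside -0.07). In epididymis relative to brain 4 of 16 rose and 0 fell, against 4.79% called (median 0.48 beside -0.13). Rack1, a protein of the small ribosomal subunit, had 3177, 4311 and 3007 normalised reads in testis, 1563, 1483 and 1222 in epididymis and 774, 842 and 901 in brain, in the order without overlap that Gas5 had (1.73% of tested genes). Its log2 fold was 1.29 for testis over epididymis (SE 0.20, adjusted p = 0.0018 in limma) and 2.04 for testis over brain (SE 0.20, adjusted p = 6.4e-06 in limma). Eef2, the factor that moves the ribosome along, had 2924, 2823 and 2301 in testis, 1434, 1654 and 1730 in epididymis and 629, 799 and 754 in brain. Tpt1, a classic 5′TOP transcript, averaged 15548 ± 3207 in testis, 6028 ± 1161 in epididymis and 4231 ± 459 in brain. Without testis replicate 1 and epididymis replicate 3 the counts were 3 of 16 for testis over epididymis, 12 for testis over brain and 3 for epididymis over brain. Several of these genes, as well as those of ribosomal proteins, have near-identical copies in the genome, and how shared reads were counted is unknown. The reads of these genes and of the ribosomal proteins are part of the same library totals, and the part of overall composition in the Gas5 difference was not tested.

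Of 16 genes of nonsense-mediated decay, the pathway that removes spliced Gas5, 1 was called between testis and epididymis (4.39% of all tested genes, median log2 fold 0.28 beside 0.10). Between testis and brain 1 of 16 was called (11.7% of all tested genes, median -0.09 beside -0.07), both times Rbm8a. Rbm8a, a core part of the exon junction complex, had 1964, 2177 and 1600 normalised reads in testis, 1026, 809 and 1192 in epididymis and 993, 959 and 1404 in brain. Its log2 fold was 0.93 for testis over epididymis (SE 0.23, adjusted p = 0.032 in limma) and 0.78 for testis over brain (SE 0.23, adjusted p = 0.038 in limma). Without testis replicate 1 and epididymis replicate 3 neither call was made (limma adjusted p = 0.10 and 0.096), and over the 9 single omissions the first held in 4 and the second in 5. Between epididymis and brain limma, edgeR and DESeq2 called 0 of 16, with 2 at an unadjusted limma p below 0.05. Upf1, the helicase of the pathway, named for its role after its values were seen, averaged 180 ± 92.9 in testis, 169 ± 120 in epididymis and 252 ± 43.9 in brain.

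Among glucocorticoid response genes, set beside Gas5 for its link to the receptor, the called genes moved in both directions. In testis relative to epididymis 2 of 11 rose and 0 fell, where 4.39% of all tested genes were called (median log2 fold 1.07 beside 0.10). In testis relative to brain 2 rose and 1 fell, where 11.7% were called (median 1.01 beside -0.07). Dusp1, a phosphatase also on the dissociation list, had 3765, 4002 and 5555 normalised reads in testis, 1296, 1066 and 720 in epididymis and 857, 1216 and 1767 in brain (log2 fold of testis over epididymis 2.13 ± 0.28 SE, adjusted p = 0.00051 in limma). Tsc22d3, also known as Gilz, had 365, 274 and 422 in testis against 101, 148 and 138 in epididymis (log2 fold 1.44 ± 0.37 SE, adjusted p = 0.038 in limma). The call of Tsc22d3 held in 1 of the 9 single omissions. Sgk1, a kinase, was lower in testis than in brain, with 172, 227 and 151 against 925, 1150 and 1253 (log2 fold -2.60 ± 0.31 SE, adjusted p = 3.5e-05 in limma), and was lower in epididymis too, with 223, 153 and 181. The metallothionein genes Mt1 and Mt2 were the 2 of 11 called higher in epididymis than in brain, and Sgk1 the 1 called lower. Limma called 4.79% of all tested genes there. Without testis replicate 1 and epididymis replicate 3 neither metallothionein gene was called. Nr3c1, the receptor itself, averaged 747 ± 162 in testis, 792 ± 150 in epididymis and 615 ± 37.1 in brain and was not called.

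**Figure D4:**
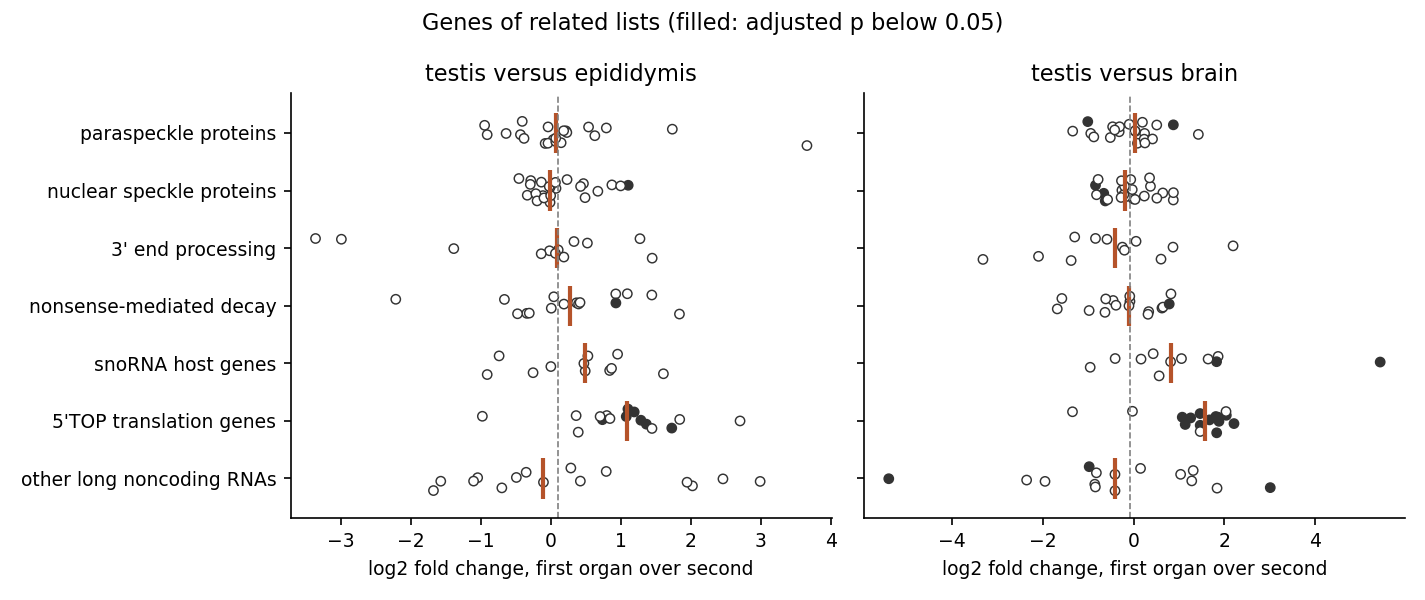
Log2 folds (horizontal axes) of the tested genes of 7 lists for testis over epididymis and testis over brain, 1 point per gene, filled for a limma adjusted p below 0.05, with an orange bar at each list's median and a dashed line at the median of all tested genes. The 5′TOP translation genes have medians of 1.09 and 1.57, while paraspeckle and nuclear speckle genes have medians between -0.19 and 0.07.

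Other long noncoding RNAs went in both directions. Of 24 listed 16 were in the table and 15 tested, and between testis and epididymis limma and edgeR called 0 and DESeq2 called 1 lower, with 3 at an unadjusted limma p below 0.05. In testis relative to brain, 1 rose and 2 fell (median log2 fold -0.41 beside -0.07), where limma called 11.7% of all tested genes. For all tested genes the share was 4.39% between testis and epididymis and 4.79% between epididymis and brain. Meg3, an imprinted RNA, had 171, 96.1 and 292 normalised reads in testis against 10.9, 23.4 and 31.1 in brain (log2 fold 3.01 ± 0.93 SE, adjusted p = 0.048 in limma). Kcnq1ot1, an imprinted antisense RNA whose reads cannot be told from those of its partner without strand, had 825, 763 and 704 in testis against 1546, 1613 and 1362 in brain (log2 fold -0.98 ± 0.22 SE, adjusted p = 0.0076 in limma), a call kept in all 9 single omissions. The call of Meg3 held in 3 of those omissions. Trp53cor1, a target of p53, was at 0 in the testis libraries and had 59.2, 42.4 and 27.6 in the brain libraries. Dleu2, a host of microRNAs, was the 1 of 15 lower in epididymis than in brain, with 417, 321 and 588 against 1083, 1066 and 682, and like that of Trp53cor1 its call held in 3 of the 9 single omissions.

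Genes near the 3 RNAs were called in both directions. Of 62 genes annotated within 200 kb of the 3 RNAs, 26 were in the table and 21 were tested. Between testis and epididymis limma and edgeR called 0 of 21 and DESeq2 called 1, with 1 at an unadjusted limma p below 0.05, against 4.39% of all tested genes called by limma (median log2 fold 0.15 beside 0.10). In limma between testis and brain 1 was higher and 2 were lower in testis, 3 of 21 where 11.7% of all tested genes were called (median -0.59 beside -0.07). Ehbp1l1, a cytoskeletal adaptor, had 1355, 1671 and 1284 normalised reads in testis, 1054, 1133 and 1521 in epididymis and 619, 691 and 597 in brain (log2 fold of testis over brain 1.17 ± 0.22 SE, adjusted p = 0.0022 in limma). It was also the 1 of 21 called higher in epididymis than in brain, a call lost without testis replicate 1 and epididymis replicate 3 (limma adjusted p = 0.083). Sipa1, a Rap GTPase regulator, had 89.0, 231 and 280 in testis against 590, 456 and 525 in brain (log2 fold -1.53 ± 0.44 SE, adjusted p = 0.036 in limma). The call of Sipa1 held in 4 of the 9 single omissions. Sssca1 was at 0 in testis and had 69.2, 25.6 and 32.9 in brain.

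Neat1 and Malat1, adjacent genes of the same strand, differed from each other, since the ratio of Neat1 to Malat1 differed among organs as given above. Gas5 shares no exonic base with Zbtb37, which overlaps the 5′ end of the GENCODE Gas5 gene on the opposite strand. Zbtb37 ends at chr1:161034849, before the downstream Gas5 start shown above. It had 256, 148 and 144 normalised reads in testis, 62, 319 and 153 in epididymis and 384, 448 and 286 in brain. Annotated snoRNAs lie within exons of some Gas5 transcripts and have no rows of their own, and Malat1 shares 453 bases with Gm37376 on the opposite strand. The kit does not mark the strand, so reads from such overlaps cannot be assigned to one gene.

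**Figure D5:**
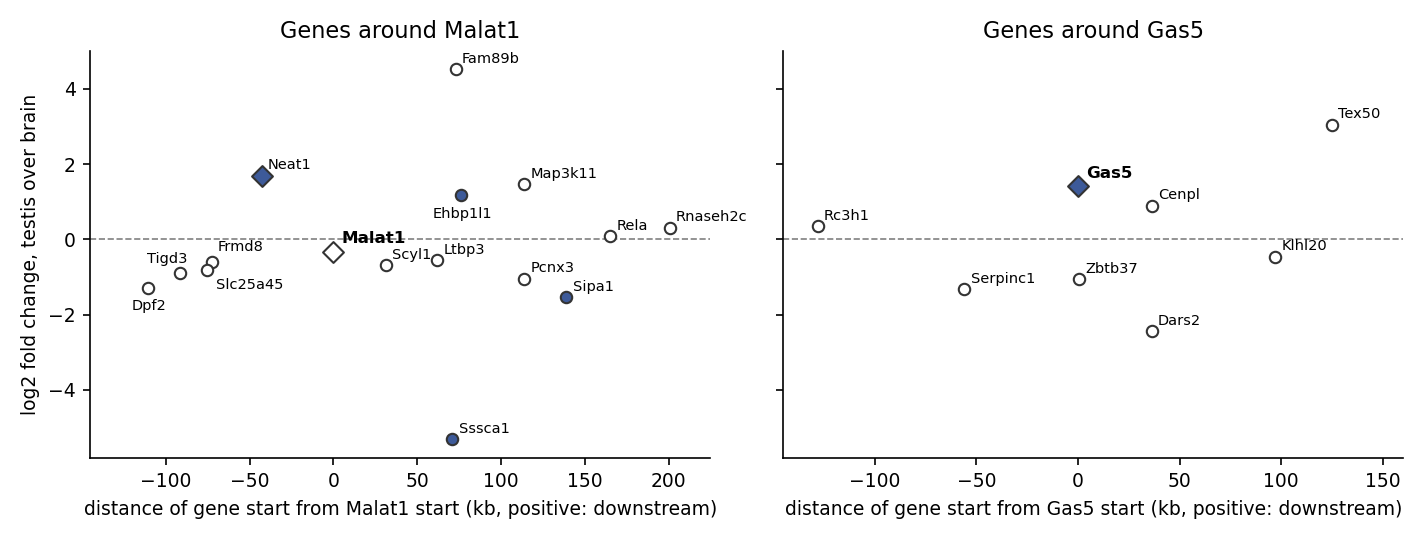
Log2 fold of testis over brain (vertical axis) of tested genes within 200 kb against the distance of their start from that of Malat1 or Gas5 in kb (horizontal axis, positive downstream), with diamonds for Malat1, Neat1 and Gas5 and filled symbols for a limma adjusted p below 0.05. Neat1 (1.70) and Gas5 (1.41) are filled beside open neighbours on both sides, with Ehbp1l1, Sipa1 and Sssca1 as the filled neighbours.

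The genes whose pattern over the 9 libraries was most like each RNA were found by Pearson's r of log2 values among 4941 genes with a mean of at least 100. For Malat1 they were Dst (r 0.96), a cytoskeletal linker, Chd9 (0.96), a chromatin remodeller, and Stau1 (0.94), an RNA-binding protein. Dst averaged 1144 ± 40.6 normalised reads in testis macrophages, 2580 ± 102 in epididymis and 3669 ± 1612 in brain. For Neat1 they were Ahnak (0.98), a large scaffold protein, H3f3b (0.98), a gene for histone H3.3, and Pim1 (0.97), a kinase. H3f3b averaged 8530 ± 765 in testis, 4322 ± 465 in epididymis and 2838 ± 416 in brain, and Ahnak 2879 ± 312, 135 ± 25.8 and 43.6 ± 53.0, a far wider range than that of Neat1.

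For Gas5 they were Rps27 (0.99) and Rpl17 (0.98), both of ribosomal proteins, and Hspe1 (0.98), a mitochondrial chaperone. Rps27 averaged 4940 ± 2014 normalised reads in testis macrophages, 1842 ± 722 in epididymis and 981 ± 324 in brain. The 9 points share 3 organs and their library factors, so these values describe likeness over the organs and little within them.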

How the data were processed

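RNA was sequenced from sorted macrophages with a TruSeq RNA v2 kit from 10 ng of RNA, after a digestion of 40 min, per the labels' protocols. In its standard form the kit selects polyadenylated RNA, a step the labels do not state. How far it captured Malat1 and the long Neat1 transcript, which lack a poly(A) tail, was not tested. The levels of Malat1 and Neat1 beside other genes, also per kb and as ratios, may depend on that capture. CASAVA 1.8, Bowtie2 2.2.1, Partek 6.6, DESeq2 and the mm10 genome are named per the submitters' processing notes. Neither the counting rule nor the annotation is given in the sources used here.

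The deposited signal values were made by the authors by scaling each library's reads with 1 factor. Dividing by the smallest value gave whole reads for 100% of values, with a largest deviation of 3.9e-10 reads, and 1 read was worth 0.808 to 1.11 normalised reads. The 11766 genes that reached a value of 10 in 3 or more libraries were tested on log2(value + 1) with limma 3.58.1 in R 4.3.3, with 1 mean per organ and a variance trend, adjusted over all of them and called below 0.05. Fold changes are on the log2(value + 1) scale. Alternatives were a pseudocount of 10, no filter, library totals, quantile normalization, no variance trend, fits of 2 organs, edgeR 4.0.16 and DESeq2 1.42.0 on the recovered reads, and single omissions. The omission of testis replicate 1 with epididymis replicate 3 was added after seeing the data. The count test in edgeR called 366 genes between testis and epididymis.

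The genes, lists and tests were chosen with earlier results of these data known. Genes named were the 3 RNAs, up to 3 called genes of each list and direction by smallest adjusted p, the 3 most similar genes, tested neighbours and the sort genes. Of genes outside that rule, Sfpq, Nono, Snhg1 and Upf1 are marked as such. Others carry no mark, among them Nr3c1, Elac2, Aif1, Cd68 and Klf2. Lists are described by counts and medians. Libraries of an organ are numbered in the order of the sample list.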

Additional observations from a re-analysis of the deposited data

How the results depend on the processing

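Calls of Malat1, Neat1 and Gas5, gene counts and ratios were recomputed in 314 combinations of result and setting, of which 268 stayed on the same side. Where they did not, the cause was not tested except as stated. Without the variance trend, Neat1 had log2 folds of 0.95 for testis over epididymis (limma adjusted p = 0.25) and 0.75 for epididymis over brain (adjusted p = 0.37) and an F of 13.3 (adjusted p = 0.050). Under the same setting Gas5 had 0.92 for testis over epididymis (adjusted p = 0.29), 1.41 for testis over brain (adjusted p = 0.058) and an F of 8.12 (adjusted p = 0.12), and the genes called numbered 192 for testis over epididymis, 837 for testis over brain, 306 for epididymis over brain and 737 by F.

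Quantile normalization gave testis over epididymis folds of 0.23 for Malat1, 0.63 for Neat1 (adjusted p = 0.079) and 0.73 for Gas5 (adjusted p = 0.061). The Malat1 fold follows from its rank in epididymis replicate 3, as given above, and does not measure its level. Library totals gave -0.55 for Malat1 in testis over brain (adjusted p = 0.044) and 0.75 for Gas5 in testis over epididymis (adjusted p = 0.065). Fits of 2 organs, with fewer libraries, gave 0.75 for Neat1 in epididymis over brain (adjusted p = 0.069), 0.92 for Gas5 in testis over epididymis (adjusted p = 0.079) and 250 genes called for testis over epididymis. In edgeR, Neat1 had 0.69 for epididymis over brain (adjusted p = 0.071). DESeq2 called Malat1 at -0.33 in testis over brain (adjusted p = 0.037), and 782 genes for testis over epididymis and 904 for epididymis over brain. With no filter Malat1 was called at -0.32 in testis over brain (adjusted p = 0.016) and by F (8.98, adjusted p = 0.029).

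Without testis replicate 1 and epididymis replicate 3, Neat1 had 0.91 for testis over epididymis (adjusted p = 0.10) and 0.73 for epididymis over brain (adjusted p = 0.11), Gas5 had 1.02 for testis over epididymis (adjusted p = 0.10), and 198 genes were called in that comparison. Over the 9 single omissions, Malat1 ranged from -0.15 to 0.0075 for epididymis over brain, positive without brain replicate 2, Neat1 from 0.61 to 0.88 there and from 0.89 to 1.06 for testis over epididymis, and Gas5 from 0.71 to 1.04 for testis over epididymis. Genes called ranged from 278 to 442 for testis over epididymis, 827 to 1457 for testis over brain, 320 to 597 for epididymis over brain and 859 to 1302 by F. The main counts were 516, 1371, 564 and 1337.

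Of 1944 recomputed list counts 246 moved by over 1.5 times, and of 1584 values of other named genes 276 lost their call while 0 changed sign. No paired analysis was possible because the labels carry no replicate number shared between organs. No alternative at another read depth was run.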
